A study of Mus musculus with 12 samples.

Results

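The cell cycle and DNA replication genes described here are a set of 40 mouse genes for replication licensing, S phase and mitosis. They were listed by name, with earlier results of these data known, and no cut on their values was applied. A gene entered if a probe set (a group of array probes read as 1 value) carried exactly its symbol, and the probe sets of a gene were averaged. Of the 40 genes, 39 were measured, by 41 probe sets, out of 21314 genes in all. Ccnb1, the B-type cyclin partner of Cdk1, had no probe set with exactly its symbol, so its level was not analysed here and only its promoter window was counted. The measured genes comprised 17 S phase genes, 20 mitotic genes and 2 that were placed in neither class, Ccnd1 and Mybl2.

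A dividing cell loads the MCM helicase onto its replication origins in G1, fires those origins in S phase, and then separates its chromosomes in mitosis under the control of Cdk1 and its cyclins. Genes of the S phase group are typical targets of E2F transcription factors and are switched on at the G1/S boundary, whereas mitotic genes are largely switched on later, through promoter elements bound by the DREAM, B-Myb and FoxM1 complexes. In the colon, dividing cells sit mainly in the lower crypt, and crypt proliferation is part of the repair that follows epithelial injury.

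RNA of the whole colon of 12 mice aged 6 to 8 weeks was hybridised to Affymetrix arrays, 1 array per mouse. Parp1-/- mice, which lack the ADP-ribosylating enzyme Parp1, and wild-type mice received either plain drinking water or water with 4% dextran sulfate sodium (DSS), a polymer that injures the colonic epithelium, for 7 days. This gave 4 groups of 3 mice: wild-type water, wild-type DSS, Parp1-/- water and Parp1-/- DSS. Crypts, muscle wall and infiltrating cells were profiled together, so fewer cells of a type and less RNA per cell cannot be told apart.

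Values are log2 levels, centred so that the 12 arrays of each probe set have a median of 0. A value therefore says where an array lies among the 12 for that gene, and 1 gene's level cannot be set against another's. Parp1 itself stood at -0.41, 1.15 and 0.53 on water and at 0.01, 0.51 and 0.77 on DSS in wild-type mice, against -0.03, -0.08 and -0.01 on water and -0.22, -0.09 and 0.03 on DSS in Parp1-/- mice. Its mean was 0.43 ± 0.55 (SD, n = 6) in wild-type and -0.07 ± 0.09 (SD, n = 6) in Parp1-/- mice (two-sided exact permutation test over 924 splits, p = 0.0498), and 4 of 6 wild-type arrays lay above every Parp1-/- array. The library labelled wild-type water 1 had the lowest Parp1 value of the 12. Whether the probe set lies in the disrupted part of the gene was not analysed here, so its level is a weak check of the labels.

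Arrays stood apart in 2 ways that touch every result below. The 3 wild-type water arrays and wild-type DSS 1 had an SD over all probe sets of 0.666 to 0.871, against 0.256 to 0.394 on the other 8 arrays. Their mean over 21 housekeeping genes was -1.75 to -1.05, against -0.02 to 0.39, and over 12 epithelial markers -1.57 to -0.70, against -0.06 to 0.34. Separately, Parp1-/- water 2, Parp1-/- water 3 and Parp1-/- DSS 1 had a mean of 2.76 to 2.77 over 10 smooth muscle markers, against -0.56 to 0.06 on the other 9 arrays. Because the table is centred, it cannot show whether a marker is absent; colonic epithelium markers were measured on every array, but their absolute level is unknown.

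Promoter sequences are shown first, since S phase and mitotic genes are classically told apart by 2 kinds of element. Windows from 250 bases before to 50 bases after the transcription start were matched by gene symbol for 31 of the 40 genes, in 32 windows of RefSeq (assembly GRCm38.p6). An E2F-type element was counted as TTTCCCGC, TTTCGCGC, TTTGCCGC or TTTGGCGC on either strand, and a CHR (cell cycle genes homology region) as TTTGAA on either strand. The 250 bases before the start are printed for 4 mitotic genes with wide differences between groups and for 2 MCM helicase genes of S phase, as examples of windows that hold a match, picked after their values were seen, and read 5′ to 3′ in the direction of transcription. Capitals mark each match to an E2F-type element or a CHR.
Mki67: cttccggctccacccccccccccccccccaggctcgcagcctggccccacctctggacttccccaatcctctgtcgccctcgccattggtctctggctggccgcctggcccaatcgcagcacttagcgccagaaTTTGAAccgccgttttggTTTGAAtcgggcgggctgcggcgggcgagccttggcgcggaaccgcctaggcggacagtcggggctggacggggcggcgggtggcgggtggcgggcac
Cdk1: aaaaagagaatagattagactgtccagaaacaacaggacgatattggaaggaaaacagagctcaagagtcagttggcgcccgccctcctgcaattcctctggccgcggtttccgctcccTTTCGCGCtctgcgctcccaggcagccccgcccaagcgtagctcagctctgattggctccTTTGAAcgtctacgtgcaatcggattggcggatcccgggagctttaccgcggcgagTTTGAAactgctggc
Top2a: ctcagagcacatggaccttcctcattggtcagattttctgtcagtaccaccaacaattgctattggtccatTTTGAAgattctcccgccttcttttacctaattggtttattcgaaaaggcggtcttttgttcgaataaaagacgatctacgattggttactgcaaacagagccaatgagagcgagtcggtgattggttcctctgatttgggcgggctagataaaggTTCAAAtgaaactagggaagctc
Kif11: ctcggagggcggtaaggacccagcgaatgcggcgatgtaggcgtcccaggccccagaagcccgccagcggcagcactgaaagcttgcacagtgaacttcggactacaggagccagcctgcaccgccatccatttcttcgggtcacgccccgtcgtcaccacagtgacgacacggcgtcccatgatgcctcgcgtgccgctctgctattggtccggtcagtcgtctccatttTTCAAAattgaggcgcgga
Mcm6: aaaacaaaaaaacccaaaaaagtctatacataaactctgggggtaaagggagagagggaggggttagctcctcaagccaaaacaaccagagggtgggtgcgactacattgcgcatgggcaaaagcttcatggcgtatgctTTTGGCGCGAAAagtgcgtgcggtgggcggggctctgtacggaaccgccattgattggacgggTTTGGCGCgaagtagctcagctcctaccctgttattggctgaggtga
Mcm7: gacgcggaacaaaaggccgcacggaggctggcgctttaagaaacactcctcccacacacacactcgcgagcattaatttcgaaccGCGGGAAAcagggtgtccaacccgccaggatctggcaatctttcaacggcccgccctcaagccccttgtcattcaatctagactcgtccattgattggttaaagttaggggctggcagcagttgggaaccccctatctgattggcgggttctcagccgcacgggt
The windows lie at chr7:135716380-135716629 (minus strand) for Mki67, chr10:69352913-69353162 (minus) for Cdk1, chr11:99024190-99024439 (minus) for Top2a, chr19:37376132-37376381 (plus) for Kif11, chr1:128359706-128359955 (minus) for Mcm6 and chr5:138171884-138172133 (minus) for Mcm7, all just upstream of the first exon.

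Mki67 held 2 CHR matches, 98 and 116 bases before the start, and Top2a held 1 on each strand. Kif11 held 1 CHR, 19 bases before the start. Cdk1 held 2 CHR matches and an E2F-type match 131 bases before the start. In the 2 helicase genes the capitals are E2F-type letters: 3 matches in Mcm6, of which 2 overlap on opposite strands, and 1 in Mcm7. Mcm7 had another window, not printed, which held no E2F-type match. Over all windows, an E2F-type match was found in 6 of 15 windows of S phase genes, in 1 of 16 windows of mitotic genes (6.25%) and in 2.26% of 32851 promoter windows. A CHR was found in 2 of 15 S phase windows (13.3%), in 10 of 16 mitotic windows (62.5%) and in 17.9% of all windows. The variant TTTAAA was found in 3 of 15 S phase windows, 6 of 16 mitotic windows and 13.2% of all windows, and the CCAAT box (CCAAT, either strand) in 10 of 15, 13 of 16 and 37.4%. The window of Mad2l1, a mitotic gene with some of the widest differences below, held none of the 4 motifs. A match of letters describes the sequence and does not show that a factor binds there.

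**Figure D1:**
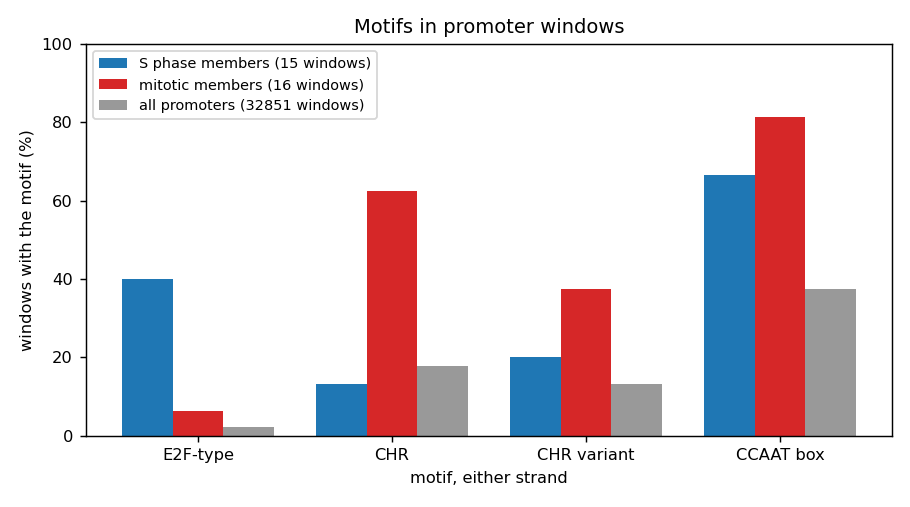
Share of promoter windows, in percent, that hold each of 4 motifs on either strand, for 15 windows of S phase genes, 16 windows of mitotic genes and all 32851 windows. The E2F-type bar is tallest for S phase genes (6 of 15 windows) and the CHR bar for mitotic genes (62.5%).

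The mean of the 39 genes was -0.65, -0.19 and -0.39 on water and -0.57, 0.20 and 0.32 on DSS in wild-type mice. In Parp1-/- mice that mean was 0.03, 0.49 and 0.70 on water and 0.13, -0.25 and -0.12 on DSS. Parp1-/- water 3 was the highest array and wild-type water 1 the lowest, and wild-type DSS 1 lay with the wild-type water arrays rather than with the other 2 DSS arrays.

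Counted gene by gene, 5, 18 and 11 of the 39 were above 0 on the wild-type water arrays and 5, 25 and 37 on those with DSS. In Parp1-/- mice 27, 37 and 38 were above 0 on water and 24, 3 and 8 on DSS. Parp1-/- water 3 was the highest of the 12 arrays for 21 genes, and wild-type DSS 1 and wild-type water 1 were the lowest for 14 and 11. Within groups, 37 of 39 genes were higher in Parp1-/- water 2 and 3 than in Parp1-/- water 1, and 29 of 39 were higher in Parp1-/- DSS 1 than in the other 2 arrays of its group, so that the 3 arrays rich in smooth muscle transcripts were also the high arrays of their groups. In wild-type DSS, 34 of 39 genes were lower in array 1 than in arrays 2 and 3. The housekeeping mean had the same orders, at 0.31 and 0.25 against 0.11 in Parp1-/- water and 0.22 against 0.02 and 0.07 in Parp1-/- DSS. On wild-type DSS 1 the housekeeping mean was -1.07, against -0.02 and 0.39 on arrays 2 and 3. The share of all genes with these orders was not counted. The part of array composition in these patterns was not tested.

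**Figure D2:**
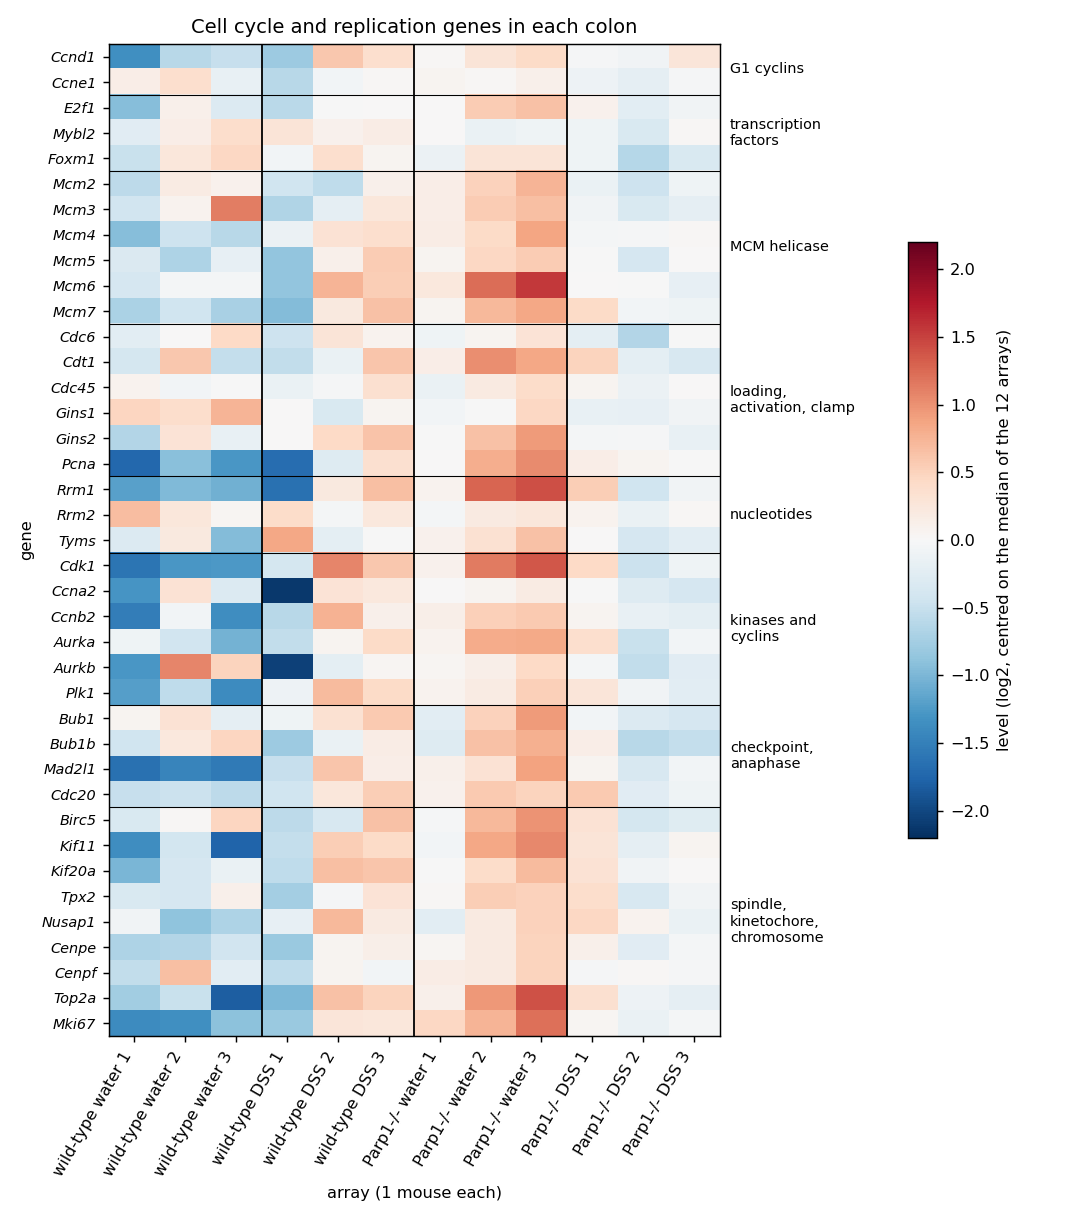
Level of each of the 39 genes (rows) on each of the 12 arrays (columns), in log2 units centred on the gene's probe sets, on the deposited scale. The wild-type water arrays and wild-type DSS 1 are mostly low, Parp1-/- water 2 and 3 mostly high, and Parp1-/- water 3 is the highest array for 21 genes; minus the housekeeping mean, the wild-type water arrays have the highest mean of the 39 genes (0.78 to 1.09).

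S phase and mitotic means were both low on wild-type water 1 and wild-type DSS 1 and highest on Parp1-/- water 2 and 3, but not to the same extent. The S phase mean was -0.43, -0.06 and -0.21 on water and -0.49, 0.03 and 0.32 on DSS in wild-type mice, and 0.05, 0.53 and 0.72 on water and 0.06, -0.22 and -0.09 on DSS in Parp1-/- mice. For the mitotic genes the corresponding means were -0.83, -0.29 and -0.58, then -0.67, 0.33 and 0.31, then 0.02, 0.50 and 0.73, and lastly 0.20, -0.28 and -0.17. The S phase mean lay above the mitotic mean by 0.39, 0.23 and 0.37 in wild-type water, whereas it differed from it by 0.03, 0.03 and -0.01 in Parp1-/- water.

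In DSS the S phase minus mitotic difference was 0.19, -0.31 and 0.01 in wild-type and -0.14, 0.05 and 0.08 in Parp1-/- mice. The difference therefore separated the wild-type water arrays from both Parp1-/- groups without overlap. It also separated the 4 arrays that stand apart (0.19 to 0.39) from the other 8 (-0.31 to 0.08), so that in water genotype and this set of arrays cannot be told apart. Its SD between arrays of a group was 0.145 (8 degrees of freedom).

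**Figure D3:**
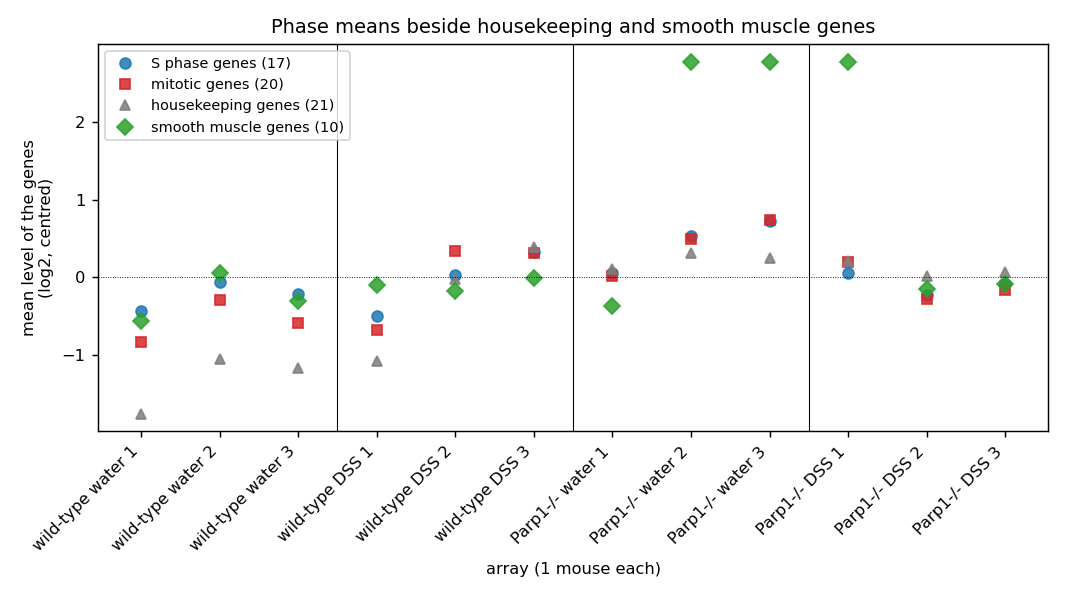
Mean level (log2, centred, on the deposited scale) of the S phase and mitotic genes on each array, beside the housekeeping and smooth muscle lists. The mitotic mean lies below the S phase mean by 0.19 to 0.39 on the wild-type water arrays and wild-type DSS 1, where the housekeeping mean is lower still, and the smooth muscle mean is high on 3 Parp1-/- arrays.

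The replicative helicase Mcm2 to Mcm7 unwinds DNA at the fork. Mcm2 stood at -0.58, 0.18 and 0.10 on water and -0.44, -0.55 and 0.11 on DSS in wild-type mice, and 0.15, 0.50 and 0.75 on water and -0.15, -0.45 and -0.10 on DSS in Parp1-/- mice. Mcm6 stood at -0.37, -0.05 and -0.03 on water and -0.87, 0.74 and 0.54 on DSS in wild-type mice, 0.23, 1.23 and 1.55 in Parp1-/- water, and with DSS between -0.17 and 0.00 in that genotype. Both genes were highest on Parp1-/- water 2 and 3, and in both the Parp1-/- groups did not overlap. For Mcm6 the next arrays were wild-type DSS 2 and 3.

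Mcm4 stood at -0.94, -0.45 and -0.60 on water and -0.12, 0.33 and 0.37 on DSS in wild-type mice, and 0.17, 0.42 and 0.87 on water and -0.04, -0.02 and 0.02 on DSS in Parp1-/- mice. Every wild-type water array lay below every other array, which among the helicase genes was so for Mcm4 alone. Mcm3 was the most uneven helicase gene within wild-type water, where it stood at -0.42, 0.07 and 1.12.

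Among the genes for helicase loading and activation and the sliding clamp, Pcna, which tethers polymerases to DNA, moved farthest. It stood at -1.72, -0.91 and -1.28 on water and -1.68, -0.28 and 0.35 on DSS in wild-type mice, and 0.01, 0.80 and 1.04 on water and 0.14, 0.06 and -0.01 on DSS in Parp1-/- mice. Its wild-type DSS arrays ran from within the wild-type water range to within the Parp1-/- water range. Gins1, a subunit of the GINS complex that activates the helicase, went the other way, at 0.47, 0.39 and 0.75 on water and 0.01, -0.33 and 0.07 on DSS in wild-type mice, and -0.06, -0.01 and 0.45 on water and -0.17, -0.19 and -0.07 on DSS in Parp1-/- mice. Its wild-type water arrays were above both DSS groups. The partner subunit Gins2 did not share that pattern: its mean in wild-type mice was -0.16 on water and 0.36 on DSS.

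Of the genes of nucleotide supply, the ribonucleotide reductase subunits Rrm1 and Rrm2, which together make deoxyribonucleotides, differed from each other. Rrm1 stood at -1.19, -0.97 and -1.06 on water and -1.64, 0.21 and 0.66 on DSS in wild-type mice, and 0.08, 1.27 and 1.41 on water and 0.53, -0.43 and -0.08 on DSS in Parp1-/- mice. Rrm2 stood at 0.69, 0.25 and 0.04 on water and 0.41, -0.04 and 0.24 on DSS in wild-type mice, and -0.04, 0.20 and 0.25 on water and 0.08, -0.15 and 0.02 on DSS in Parp1-/- mice, and its groups overlapped in each comparison. The 2 probe sets averaged for Rrm2 disagreed over the 12 arrays (r = -0.38, across arrays, as a description), and so did the 2 for Mybl2 (r = -0.46), so the levels of these genes are uncertain.

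Of the G1 cyclins, Ccnd1, the Cdk4 and Cdk6 partner that responds to growth signals, stood at -1.34, -0.62 and -0.51 on water and -0.80, 0.59 and 0.37 on DSS in wild-type mice. In Parp1-/- mice it stood at 0.02, 0.28 and 0.43 in water and -0.02, -0.08 and 0.26 in DSS, above every wild-type water array. Ccne1, the Cdk2 partner at the G1/S boundary, stayed within a narrower range, at 0.14, 0.36 and -0.17 on water and -0.62, -0.05 and 0.03 on DSS in wild-type mice, and 0.06, 0.02 and 0.12 on water and -0.10, -0.20 and -0.02 on DSS in Parp1-/- mice. Only its 2 Parp1-/- groups did not overlap.

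Of the transcription factors, E2f1, which activates S phase genes, stood at -0.94, 0.11 and -0.30 on water and at -0.59 with 2 values of 0.00 on DSS in wild-type mice. In Parp1-/- mice it stood at 0.01, 0.55 and 0.64 on water and at 0.10, -0.24 and -0.07 on DSS. Foxm1, which activates mitotic genes, stood at -0.49, 0.25 and 0.45 on water and -0.06, 0.36 and 0.06 on DSS in wild-type mice, and -0.13, 0.28 and 0.28 on water and -0.10, -0.62 and -0.34 on DSS in Parp1-/- mice. Mybl2 (B-Myb), which acts with the mitotic activators, stood at -0.26, 0.15 and 0.38 on water and 0.28, 0.09 and 0.17 on DSS in wild-type mice, and 0.00, -0.14 and -0.09 on water and -0.09, -0.33 and 0.02 on DSS in Parp1-/- mice. For Foxm1 and Mybl2 the wild-type DSS arrays lay above the Parp1-/- DSS arrays without overlap.

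Cdk1, the kinase that drives entry into mitosis, spanned the widest range of group means. It stood at -1.61, -1.28 and -1.26 on water and -0.39, 1.08 and 0.59 on DSS in wild-type mice, and 0.09, 1.14 and 1.37 on water and 0.44, -0.47 and -0.09 on DSS in Parp1-/- mice. Plk1, a kinase of centrosome maturation and mitotic exit, stood at -1.21, -0.56 and -1.39 on water and -0.11, 0.70 and 0.42 on DSS in wild-type mice, and 0.07, 0.18 and 0.53 on water and 0.27, -0.07 and -0.24 on DSS in Parp1-/- mice. In both genes every wild-type water array lay below all other arrays. Aurkb, a kinase of chromosome alignment, and Ccna2, a cyclin of S phase and early mitosis, instead varied widely inside the wild-type groups: Aurkb ran from -1.28 to 1.07 in wild-type water and from -2.05 to 0.04 in wild-type DSS, and Ccna2 from -1.29 to 0.31 and from -2.12 to 0.29.

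Of the spindle checkpoint and anaphase genes, Mad2l1, which holds back anaphase until chromosomes attach, had wild-type water arrays below all other arrays, as did the anaphase activator Cdc20. Mad2l1 stood at -1.64, -1.45 and -1.56 on water and -0.50, 0.61 and 0.14 on DSS in wild-type mice, and 0.11, 0.31 and 0.89 on water and 0.06, -0.34 and -0.06 on DSS in Parp1-/- mice. Bub1, a kinase of the same checkpoint, stood at 0.06, 0.32 and -0.20 on water and -0.10, 0.34 and 0.57 on DSS in wild-type mice, and -0.23, 0.51 and 0.94 on water and -0.06, -0.30 and -0.37 on DSS in Parp1-/- mice. The low wild-type water values of Mad2l1 thus had no counterpart in Bub1, whose groups overlapped in each comparison.

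Of the spindle and chromosome genes, Mki67, the source of the Ki-67 proliferation antigen, stood at -1.38, -1.35 and -0.91 on water and -0.81, 0.27 and 0.24 on DSS in wild-type mice. In Parp1-/- mice it stood at 0.46, 0.75 and 1.21 on water and 0.05, -0.15 and -0.05 on DSS, so the groups of either genotype did not overlap. Top2a, the topoisomerase that disentangles sister chromosomes, stood at -0.76, -0.48 and -1.81 on water and -0.99, 0.64 and 0.49 on DSS in wild-type mice, and 0.11, 0.95 and 1.40 on water and 0.35, -0.11 and -0.19 on DSS in Parp1-/- mice. Wild-type DSS 1 was among the wild-type water values for Top2a but just above them for Mki67.

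Between DSS and water in wild-type colon, 4 mitotic genes and Mcm4 were called higher and Gins1 lower on the deposited scale, a number near the share of all genes, and no gene was called higher once the mean of the housekeeping genes was subtracted from each array. A gene was called when limma's adjusted p, over all 21314 genes, was under 0.05. By that rule 5 of 39 genes (12.8%) were higher, against 8.89% of all genes, and 1 was lower, against 4.16%. The subtraction lowers the difference of every gene by the same 1.09; after it 0 of 39 genes were called higher and 21 lower (53.8%), against 2.18% and 66.4% of all genes. The median log2 difference was 0.33 over the 39 genes and -0.05 over all genes, and 28 of 39 were above 0, against 45.8% of all genes. Groups did not overlap for 6 of 39 genes in the higher direction (15.4%, against 11.4% of all genes). In the lower direction this held for 1 gene (2.56%, against 12.2% of all genes).

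Mad2l1 was higher in wild-type DSS than in wild-type water by 1.64 ± 0.28 on the log2 scale (SE; 3.11-fold; limma adjusted p = 0.0034), Plk1 by 1.39 ± 0.27 (limma adjusted p = 0.0069) and Cdk1 by 1.81 ± 0.40 (limma adjusted p = 0.0147). Mcm4 was higher by 0.86 ± 0.21 (limma adjusted p = 0.0238) and Mki67 by 1.11 ± 0.29 (limma adjusted p = 0.0298). Gins1 differed by -0.62 ± 0.18 (limma adjusted p = 0.0475). Over the 12 fits that each left out 1 array, the call was kept in 12 for Mad2l1 and Plk1 and in 11 for Cdk1. For Mcm4 it was kept in 9, for Mki67 in 8 and for Gins1 in 2. The kinesin Kif11, which pushes spindle poles apart, fell just short of a call, at 1.32 ± 0.40 (limma adjusted p = 0.0514).

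By phase, 4 of the 20 mitotic genes were called higher and the median difference was 0.57, whereas of the 17 S phase genes 1 was called in each direction and the median was 0.18. The S phase mean changed by 0.37 less than the mitotic mean (log2 difference of -0.37). On the same arrays 10 of 21 housekeeping genes (median 1.15), 8 of 12 epithelial markers, 2 of 9 crypt stem cell markers and 3 of 8 myeloid markers were called higher. Of 6 T cell markers, 1 was called higher and 1 lower. Quantile normalization left no call among the 39 genes, against 1.09% of all genes, and 29 of 39 were above 0. Leaving out wild-type DSS 1 gave 18 called genes, with 32.2% of all genes called. Leaving out DSS array 2 of that genotype gave 2, and leaving out its DSS array 3 or water array 1 gave 3 each. For these last fits no share of all genes is given, so their counts show only how the number of calls moved. Whether the shift of the housekeeping genes accounts for that of the cell cycle genes was not tested.

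In Parp1-/- colon no cell cycle gene was called between DSS and water, but the direction was uniform: all 39 differences were below 0, against 46.9% of all genes, with a median of -0.50, against 0.01 over all genes. The limma call rule gave 0 of 39, against 0.00938% of all genes in either direction, and an unadjusted p under 0.05 gave 6 lower genes, against 1.07% of all genes. That number was 0 without Parp1-/- water 3 and 2 without Parp1-/- water 2, Parp1-/- DSS 2 or Parp1-/- DSS 3. It was 10 without wild-type DSS 1 and 16 without Parp1-/- water 1, with no call by adjusted p in any of these fits. The share of 1.07% belongs to the fit on all 12 arrays, so these numbers show only how the count moved between fits. Groups did not overlap in the lower direction for 15 of 39 genes, against 4.7% of all genes. With array weights 22 of the 39 were called lower, against 4.03% of all genes, and with quantile normalization 0.

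Mki67 differed by -0.86 ± 0.29, Mcm2 by -0.70 ± 0.25 and Mcm6 by -1.06 ± 0.41 (SE; limma adjusted p = 1 for each). Of the 6 helicase genes 5 had groups that did not overlap. The S phase and mitotic medians were nearly the same, at -0.50 and -0.51. The difference of the S phase and mitotic changes was -0.02, under the SD of 0.145 between arrays.

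The smooth muscle list moved with this comparison, with a median of -0.98 and 10 of 10 markers below 0. So did the fibroblast list (median -0.79, 5 of 6 below 0), the endothelial list (-0.40, 6 of 6 below 0) and, upward, the myeloid list (0.73, 7 of 8 above 0) and the B cell list (0.22, 7 of 7 above 0), while the epithelial median was -0.03. No marker was called, and the part of these lists was not tested. Without Parp1-/- water 2, Parp1-/- water 3 and Parp1-/- DSS 1, 34 of 39 genes were below 0 and the median was -0.24. In that fit the water group is 1 array, assumed to vary like the others. Of the 39 genes, 30 were lower in both Parp1-/- DSS 2 and 3 than in Parp1-/- water 1. These are the arrays of the 2 groups not rich in smooth muscle transcripts. The share of all genes with that order, or below 0 in that fit, was not counted, and both counts rest on 1 water array.

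In water, Parp1-/- colon had higher levels of cell cycle genes than wild-type colon on the deposited scale, while subtraction of the housekeeping mean, which lowers the difference of every gene by the same 1.54, turned the direction. On the deposited scale 15 of 39 genes (38.5%) were called higher, against 17.9% of all genes, and 0 lower, against 13.7%. After the subtraction 0 were higher and 21 lower (53.8%), against 1.77% and 77.7% of all genes. The limma test at an unadjusted p under 0.05 gave 22 higher genes, against 23.7% of all genes, and 1 lower, against 22.8%. The median log2 difference was 0.75, against -0.07 over all genes, and 35 of 39 were above 0, against 46.5%. Groups did not overlap in the higher direction for 18 of 39, against 26.2% of all genes.

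Cdk1 was higher in Parp1-/- than in wild-type water by 2.25 ± 0.40 (SE; 4.76-fold; limma adjusted p = 0.0031), Mki67 by 2.02 ± 0.29 (4.06-fold; limma adjusted p = 0.0010) and Mad2l1 by 1.99 ± 0.28 (3.97-fold; limma adjusted p = 0.0008). Rrm1 was 3.99-fold higher (SE of 0.53 on the log2 scale; limma adjusted p = 0.0177). Pcna was higher by 1.92 ± 0.44 on the log2 scale (limma adjusted p = 0.0099) and Mcm4 by 1.15 ± 0.21 (limma adjusted p = 0.0035). The other called genes were the topoisomerase Top2a (1.84), the kinesin Kif11 (1.79), the cyclins Ccnb2 (1.39) and Ccnd1 (1.06), the kinases Plk1 (1.31) and Aurka (1.10), the helicase subunit Mcm7 (1.16), the anaphase activator Cdc20 (0.90) and the kinetochore motor Cenpe (0.83).

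Of the mitotic genes 10 of 20 were called, with a median of 0.85, and of the S phase genes 4 of 17, with a median of 0.71. The S phase mean was higher by 0.32 less than the mitotic mean (log2 difference of -0.32), which became -0.14 after quantile normalization. On the quantile scale the S phase minus mitotic difference was 0.17, 0.12 and 0.22 in wild-type water. In Parp1-/- water it was 0.08, 0.02 and -0.01 on that scale, without overlap. Ccne1, Gins1, Rrm2 and Mybl2 were the 4 genes below 0, at -0.05, -0.41, -0.19 and -0.17.

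The same contrast held 16 of 21 housekeeping genes called higher (median 1.63), 9 of 12 epithelial markers and 4 of 9 crypt stem cell markers. In the lower direction, 1 of the 9 crypt stem cell markers and 1 of 6 T cell markers were called. The smooth muscle median was 2.57 with no marker called, the fibroblast median 1.54 (6 of 6 above 0, 1 called) and the endothelial median 0.82 (5 of 6 above 0, 0 called). Without the 3 arrays rich in smooth muscle transcripts the median over the cell cycle genes was 0.39, with 27 of 39 above 0. In that fit the Parp1-/- water group is 1 array, and the share of all genes above 0 was not counted. Leaving out Parp1-/- water 2 or Parp1-/- water 3 alone gave 7 calls each, with 13.8% and 14.2% of all genes called. The part of these lists in the result was not tested, and the 3 wild-type water arrays cannot be told apart from the set of arrays that stand apart.

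**Figure D4:**
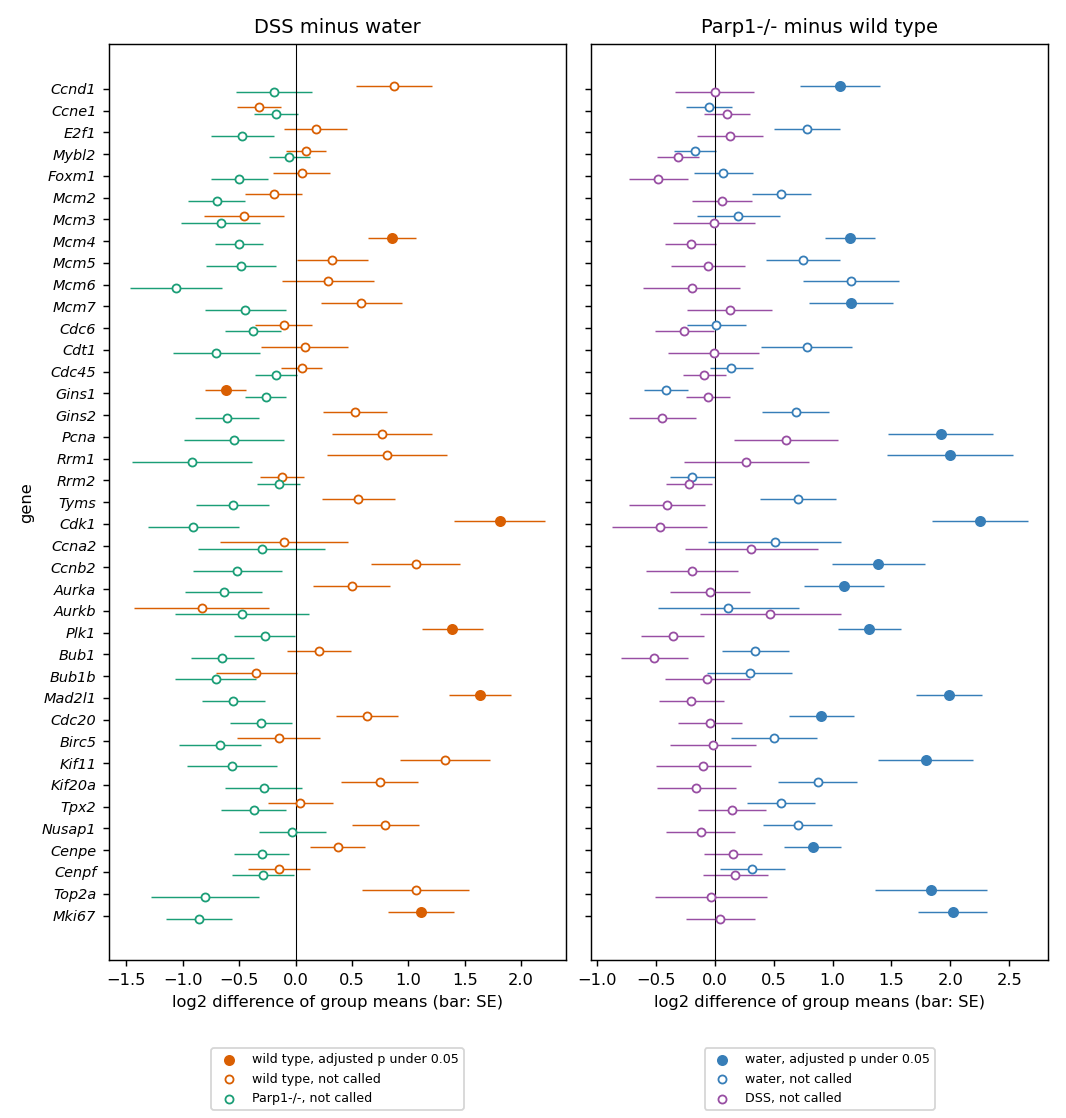
Log2 difference of group means (point) with its standard error (bar) for each of the 39 genes, for DSS against water in each genotype and Parp1-/- against wild-type mice in water, on the deposited scale. In Parp1-/- mice all 39 points of the DSS comparison lie below 0, while 28 lie above 0 in wild-type mice and 35 in the water comparison; housekeeping subtraction turns the last 2 of these directions, leaving 5 and 7 above 0.

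Between the genotypes under DSS no cell cycle gene differed past the threshold. The limma rule called 0 of 39, against 0% of all genes, and none had an unadjusted p under 0.05, against 2.78% of all genes. Of the 39 differences 27 were below 0, against 49.6% of all genes, with a median of -0.06. Non-overlap in the lower direction held for 3 genes, against 4.52% of all genes: Foxm1 at -0.48 ± 0.25, Mybl2 at -0.31 ± 0.18 and Gins2 at -0.44 ± 0.29 (SE; limma adjusted p = 0.872 for Foxm1). Bub1 had the lowest difference, -0.51 ± 0.28.

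Wild-type DSS 1 weighed on this comparison: without it 38 of 39 differences were below 0 and the median was -0.33, with 0 called. Without wild-type DSS 2, wild-type DSS 3 or Parp1-/- DSS 2 the median was above 0, at 0.03, 0.16 and 0.06, and 22, 26 and 22 of 39 differences were above 0. Array weights called 17 genes lower, against 12.5% of all genes. In the fit without the 4 arrays that stand apart 0 were called and 7 had an unadjusted p under 0.05. Apart from array weights, no share of all genes is given for these fits, so the counts show only how they moved between fits.

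The response to DSS differed between the genotypes for 5 genes on the deposited scale, each with a more negative response in Parp1-/- mice. The difference of the responses was -2.19 ± 0.39 for Mad2l1 (SE; limma adjusted p = 0.0159), -1.97 ± 0.41 for Mki67 (limma adjusted p = 0.0307) and -2.72 ± 0.57 for Cdk1 (limma adjusted p = 0.0310). It was -1.35 ± 0.30 for Mcm4 (limma adjusted p = 0.0395) and -1.67 ± 0.38 for Plk1 (limma adjusted p = 0.0433). The calls were 5 of 39 in the lower direction, against 2.33% of all genes, and 0 in the higher direction, against 0.216%; an unadjusted p under 0.05 gave 15 lower genes, against 10.6%.

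These 5 genes were also called higher with DSS in wild-type mice and in the water comparison of genotypes, but the 3 comparisons share the wild-type water arrays, whose low values enter each. Of the 39 differences of responses 36 were below 0, against 46.4% of all genes, with a median of -0.82, against 0.05 over all genes. The median of the housekeeping genes was -1.33, with 2 of 21 called, and after their mean was subtracted 28 of 39 genes were above 0, with 1 called in each direction, against 17.5% of all genes higher and 0.202% lower. The difference of responses was less negative for the S phase mean than for the mitotic mean, by 0.35. No gene was called without the 3 arrays rich in smooth muscle transcripts or after quantile normalization, and no gene of all 21314 was called in either fit. Without those 3 arrays the Parp1-/- water group is 1 array. Leaving out 1 array gave 0 to 2 calls for wild-type water 1 and 3, wild-type DSS 2 and 3, Parp1-/- water 2 and 3 and each Parp1-/- DSS array. It gave 5 calls without wild-type water 2 and 4 without Parp1-/- water 1. Without wild-type DSS 1 it gave 17, where 14.9% of all genes were called. For the other fits that left out an array no share of all genes is given, so their counts show only how the number of calls moved. The 5 calls without wild-type water 2 did not include Cdk1 or Mki67. Over the 12 fits that each left out 1 array, the call was kept in 10 for Mad2l1. It was kept in 3 each for Mki67, Cdk1 and Mcm4, and in 2 for Plk1.

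The mean of the 39 genes ordered the groups differently on the 3 scales used. Minus the housekeeping mean it was 1.09, 0.86 and 0.78 on water and 0.50, 0.22 and -0.07 on DSS in wild-type mice, and -0.08, 0.18 and 0.45 on water and -0.09, -0.27 and -0.19 on DSS in Parp1-/- mice. After quantile normalization it was -0.25, -0.12 and -0.21 on water and -0.29, 0.22 and 0.33 on DSS in wild-type mice, and 0.08, 0.50 and 0.73 on water and 0.12, -0.60 and -0.23 on DSS in Parp1-/- mice. Wild-type water was thus among the lowest groups on the deposited and quantile scales and the highest against housekeeping genes. On each of the 3 scales the mean of the Parp1-/- water group lay above that of Parp1-/- DSS.

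**Figure D5:**
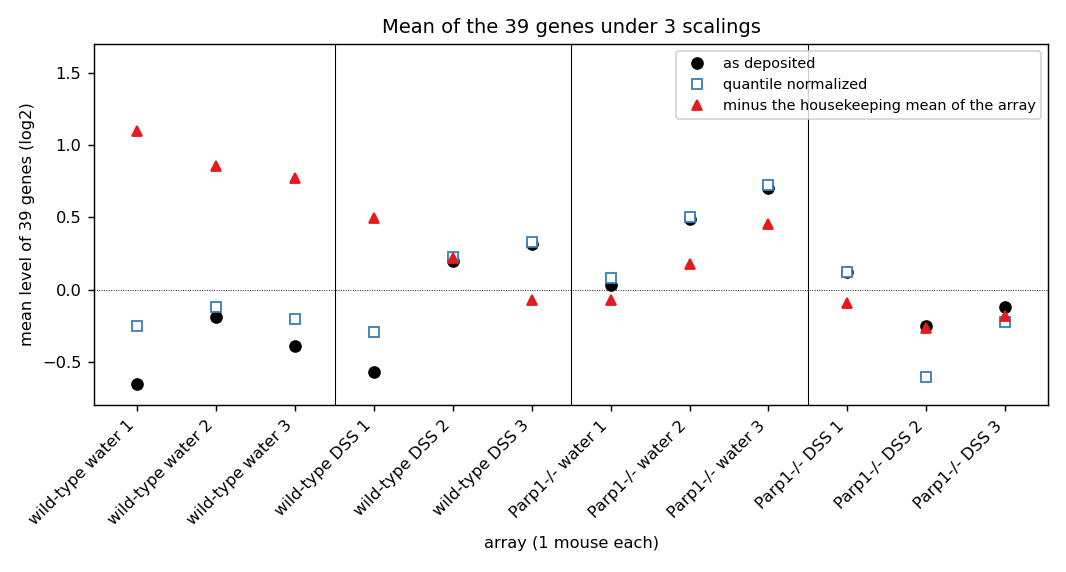
Mean of the 39 genes (log2) on each of the 12 arrays as deposited, after quantile normalization, and minus the mean of 21 housekeeping genes. The wild-type water arrays are below 0 on the first 2 scales and at 0.78 to 1.09 on the last, where they are the highest arrays.

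Further genes of the same pathways, from lists that hold none of the 39, were counted on the deposited scale. Of 31 other DNA replication genes, 0 were called higher and 1 lower for DSS in wild-type mice; the lower gene was the flap endonuclease Fen1, at -0.65 ± 0.15 (SE; limma adjusted p = 0.0173). In water 5 of 31 (16.1%) were higher in Parp1-/- mice, near the 17.9% of all genes, and 2 were lower, against 13.7%, with the chromatin remodeller Hells at 1.38 and Gins4, another GINS subunit, at 1.48. For DSS in Parp1-/- mice 29 of 31 were below 0 and none was called. With the housekeeping mean subtracted, 0 were higher and 24 (77.4%) lower both for DSS in wild-type mice, against 66.4% of all genes, and for Parp1-/- mice in water, against 77.7%, and 26 of 31 stayed below 0 for DSS in Parp1-/- mice.

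Of 34 other mitosis genes, 28 were above 0 for DSS in wild-type mice and none was called. The spindle midzone protein Prc1 came nearest, at 1.07 (limma adjusted p = 0.0783). In water 8 of 34 (23.5%) were called higher in Parp1-/- mice, against 17.9% of all genes, led by Prc1 at 1.67 and the condensin subunit Ncapd2 at 1.56, and 33 of 34 were above 0. For DSS in Parp1-/- mice all 34 were below 0 and none was called. With the housekeeping mean subtracted, 16 (47.1%) were called lower for DSS in wild-type mice, against 66.4% of all genes, and 24 (70.6%) for Parp1-/- mice in water, against 77.7%, with none higher in either, and 32 of 34 stayed below 0 for DSS in Parp1-/- mice.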

How the data were processed

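Per the labels' protocols, total RNA of whole colon was extracted with Trizol and a column, biotin-labelled and put on Affymetrix arrays. The deposited table holds log2 values, as taken from their range (-4.83 to 5.47), for 31693 probe sets, centred by the authors on each probe set's median (0 to within 5e-07). Base and direction are assumed, and software, normalization and signal over background were not given. Exactly 1 gene symbol was annotated for 22586 probe sets, several for 1756 and none for 7351. Of the 22586, 22406 matched a RefSeq GRCm38.p6 gene.

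Probe sets of a gene were averaged, and 4 group means over 12 arrays were estimated in R 4.3.3 with the limma package, version 3.58.1 (lmFit, eBayes; Benjamini-Hochberg over 21314 genes; called at adjusted p under 0.05). The model was tested on simulated data. Tables and figures used Python 3.11.15, pandas 2.3.3, scipy 1.17.1 and matplotlib 3.10.9. Groups came from genotype and treatment labels. Replicate numbers only name mice, no batch is given, and no 2 arrays held identical values. Housekeeping, marker and pathway lists and the genes were chosen with earlier results of these data known. The naming rule gave per-array values for 10 genes (Ccnb1 was unmeasured) and for the 3 genes of smallest p per comparison; those of Mcm4, Gins1 and Rrm1, and the ranges of Mcm3, Aurkb and Ccna2, were added after their values were seen. Other lists were named by smallest p. The alternatives are those of the closing section.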

Additional observations from a re-analysis of the deposited data

Results flagged for a closer look

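For 5 genes the response to DSS differed between wild-type and Parp1-/- mice by limma's test of that difference (adjusted p under 0.05). The response in Parp1-/- minus that in wild-type mice, on the log2 scale, was -2.19 for Mad2l1, -1.97 for Mki67, -2.72 for Cdk1, -1.35 for Mcm4 and -1.67 for Plk1. In each gene the 3 wild-type water arrays were lower than the other 9 arrays, and with quantile normalization none of the 5 was called. With the housekeeping mean subtracted, the call was kept for 1 of the 5.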

How the results depend on the processing

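No paired analysis was possible because the replicate numbers were given in accession order and pair no mice. The numbers of called genes were 6 for DSS in wild-type mice, 0 for DSS in Parp1-/- mice, 15 for genotype in water, 0 for genotype under DSS and 5 for the difference of responses. Counts in this section are calls among the 39 genes. Where no share of all genes is given beside them, they do not compare these genes with other genes. Equal array medians, a minimum change of 1.5-fold, both other rules for probe sets and leaving out the fifth of genes with the lowest SD kept each count within 1.5 times. The call of Gins1 for DSS in wild-type mice was lost with equal array medians and with that filter on SD. Quantile normalization gave 0 for DSS in wild-type mice, 9 for genotype in water (8 of them among the 15) and 0 for the difference of responses, and moved the S phase minus mitotic difference in water to -0.14; the filter on SD moved it to -0.17. Subtracting the housekeeping mean, which moves every gene's difference by the same amount, turned the direction of DSS in wild-type mice (21, all lower) and of genotype in water (21, all lower), and left 2 for the difference of responses. It reversed Mcm4 to -0.23 for DSS in wild-type mice and, in water, Ccnd1 to -0.48, Mcm4 to -0.39, Mcm7 to -0.39, Ccnb2 to -0.16, Aurka to -0.45, Plk1 to -0.23, Cdc20 to -0.64 and Cenpe to -0.71. Trend and robust options gave 1 for the difference of responses. Array weights, a fit whose iterations did not fully converge, gave 17, 22, 24, 17 and 24 calls in the order above. With these weights 4.03% of all genes were called lower for DSS in Parp1-/- mice and 12.5% for genotype under DSS. The S phase minus mitotic differences with array weights were -0.63 for DSS in wild-type mice, 0.33 for genotype under DSS and 0.64 for the difference of responses. Only the groups compared gave 2 for DSS in wild-type mice. An adjusted p under 0.01 gave 2 for DSS in wild-type mice, 7 for genotype in water and 0 for the difference of responses. Leaving out 1 array gave 2 to 18 for DSS in wild-type mice, 7 to 19 for genotype in water and 0 to 17 for the difference of responses. Without the 3 arrays rich in smooth muscle transcripts the counts were 3, 0 for genotype in water and 0 for the difference of responses; these fits hold fewer arrays, and otherwise the cause was not tested. The fit without the 4 arrays that stand apart has no wild-type water group and was run only where that group is not used. With 3 arrays a group, the number of arrays limits the precision.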

Other observations

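Inhibitors of the cell cycle were measured beside its drivers. Of 17 inhibitors and pocket proteins, 3 (17.6%) were called higher for DSS in wild-type mice on the deposited scale, against 8.89% of all genes: E2f5, a repressive E2F (2.17), Cdkn1a (1.68 ± 0.31, SE; limma adjusted p = 0.0052) and Rb1, the retinoblastoma protein (0.70). Cdkn1a, the p21 inhibitor of cyclin-dependent kinases, stood at -1.30, -1.70 and -1.93 on water and -0.40, 0.23 and 0.29 on DSS in wild-type mice, and 0.73, -0.51 and -0.23 on water and 0.45, 0.63 and 0.65 on DSS in Parp1-/- mice. Its wild-type water arrays lay below the other 9. In water 4 of the 17 (23.5%) were higher in Parp1-/- mice (E2f5, Cdkn1a, Rb1 and Cdkn2c), against 17.9% of all genes, and Cdkn2d was lower, at -0.69. With lists this short, counts so close to the share of all genes are given as values of these genes only. With the housekeeping mean subtracted, 1 was higher and 6 lower for DSS in wild-type mice (66.4% of all genes were lower), and 0 higher and 7 lower for Parp1-/- mice in water (77.7%).

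Of 7 G1 kinases and cyclins, 3 were called higher in Parp1-/- than in wild-type water, against 17.9% of all genes: Cdk6 (2.52), Ccnd2 (1.79) and Ccnd3 (1.57). For DSS in wild-type mice limma called 0 of the 7, and 1 had an unadjusted p under 0.05. With the housekeeping mean subtracted, 1 was higher and 2 lower in that comparison of genotypes in water, and 3 lower for DSS in wild-type mice. These levels share the wild-type water arrays, on which housekeeping genes were also low.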
